A study of Mus musculus with 8 samples.

Results

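Complex I of the respiratory chain, NADH:ubiquinone oxidoreductase, was described through the transcripts of its nuclear-encoded subunits in mouse kidney. Members were all protein-coding genes of the deposited table whose symbol starts with Ndufa, Ndufb, Ndufc, Ndufs or Ndufv followed by a number, which leaves out the assembly factors named Ndufaf. The rule found 37 genes of 54532 in the table and of 22046 protein-coding ones. Polyadenylated RNA was sequenced from kidneys of ICR mice, an outbred stock, in 4 libraries after bisphenol A (BPA), a plastics monomer that binds estrogen receptors weakly, and in 4 libraries after vehicle. Dose, route, duration, age and sex, and the nature of the vehicle, were not given in the sources used here. Nothing in the labels ties each library to its own animal; a p-value here therefore reflects the spread between these libraries alone, which may be technical.

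Complex I takes electrons from NADH, passes them through a flavin and a chain of iron-sulfur clusters to ubiquinone, and uses the energy released to pump protons across the inner mitochondrial membrane. It is shaped like an L, with a matrix arm made of an N module that oxidizes NADH and a Q module that reduces ubiquinone, and a membrane arm whose pumping core is encoded by the mitochondrial genome. Accessory subunits wrap the core and hold the modules together. In the kidney the proximal tubule and the thick ascending limb are rich in mitochondria, which power salt reabsorption.

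Levels are given as FPKM, reads scaled by gene length and library size, as the authors deposited them. Changes are BPA minus vehicle on the scale of log2(FPKM + 1), tested with limma over the 13376 genes with a mean of at least 0.5 FPKM, and a gene was called at an adjusted p under 0.05. All 37 members passed that filter, the lowest being Ndufb2. Whole reads recovered from the values came to 15944081 to 17351540 per library. BPA replicate 4 stood apart from the other libraries, so the changes described are given with and without it. Mitochondrially encoded transcripts took 14.2% of its reads; the range was 9.66 to 9.85% over BPA replicates 1 to 3 and 7.02 to 8.33% in vehicle. Of 8 proximal tubule markers 4 were lower and 4 higher in BPA, and their summed FPKM was 34822 in BPA replicate 4, compared with 62969 to 67997 in BPA replicates 1 to 3 and 50338 to 67351 in vehicle. Kap, the androgen-dependent kidney protein, dominated that sum, while the scavenger receptor Lrp2 was at 236 FPKM there and at 151 to 207 FPKM elsewhere. The summed levels of the 11 marker lists for kidney, blood, immune, fat and muscle cells all overlapped between the groups. The thick ascending limb sum was 215 to 689 FPKM in vehicle and 421 to 759 FPKM in BPA. All tested markers were higher in BPA for podocytes (4) and endothelium (4), with medians of 0.47. All tested were lower for principal cells (4), skeletal muscle (5) and fat (6). The 5 skeletal muscle markers were highest in vehicle replicate 4 (a sum of 224 FPKM, against at most 1.17 FPKM in BPA). Fat markers were also highest there (261 FPKM, against at most 14.3 FPKM in BPA). Without vehicle replicates 2 and 4, the median log2 change of the members was -0.42, with 34 lower in BPA. Over all genes tested the median was then -0.01, with 51.7% lower. Vehicle replicate 2 was itself the lowest vehicle library for 29 members, and without it alone the median of the members was -0.39. The part of the marker differences in the results was not tested. In bulk tissue, fewer cells of a type and less RNA per cell cannot be told apart.

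No member passed the test. In BPA 34 of 37 members were lower than in vehicle and 3 were higher, with a median log2 change of -0.31, against a median of -0.01 and 52% lower over all genes tested. Limma called 0 members, where 0.00748% of all genes tested (1 gene) were called, and the smallest adjusted p of a member was 0.355, for Ndufa2. At an unadjusted p under 0.05, 5 members were lower and 0 were higher, while 6.83% of all genes tested were lower and 4.18% higher at that level. Every BPA value lay below every vehicle value in 6 members (16.2%), Ndufa2, Ndufs7, Ndufs8, Ndufa8, Ndufb8 and Ndufb2, against 4.66% of all genes tested. The reverse, every BPA value above every vehicle value, held for 0 members and 3.23% of genes. After the GC and length corrections described further on, 4 members did not overlap: Ndufs7, Ndufs8 and Ndufa8 were no longer among them, and Ndufa7 was. That count is given without the share over all genes tested, so it has no background. The corrected changes were -0.32, -0.05 and -0.13 for Ndufs7, Ndufs8 and Ndufa8, and -0.60, -0.43 and -0.47 for Ndufa2, Ndufb8 and Ndufb2.

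Without BPA replicate 4 the lower members were 26 of 37 and the median was -0.15, against -0.01 and 50.9% lower over all genes tested. Limma again called 0 members (2 genes of all, 0.015%), with a smallest adjusted p of 0.344, and an unadjusted p under 0.05 was reached by 5 members on the lower side (6.12% of genes) and 0 on the higher side (4.07% of genes). The same 6 members had no overlap between the groups, against 6.1% of all genes tested, and 0 members lay wholly above vehicle, against 4.9%. Members without overlap in all libraries stay so by construction when a library is left out, and no other member joined them.

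**Figure D1:**
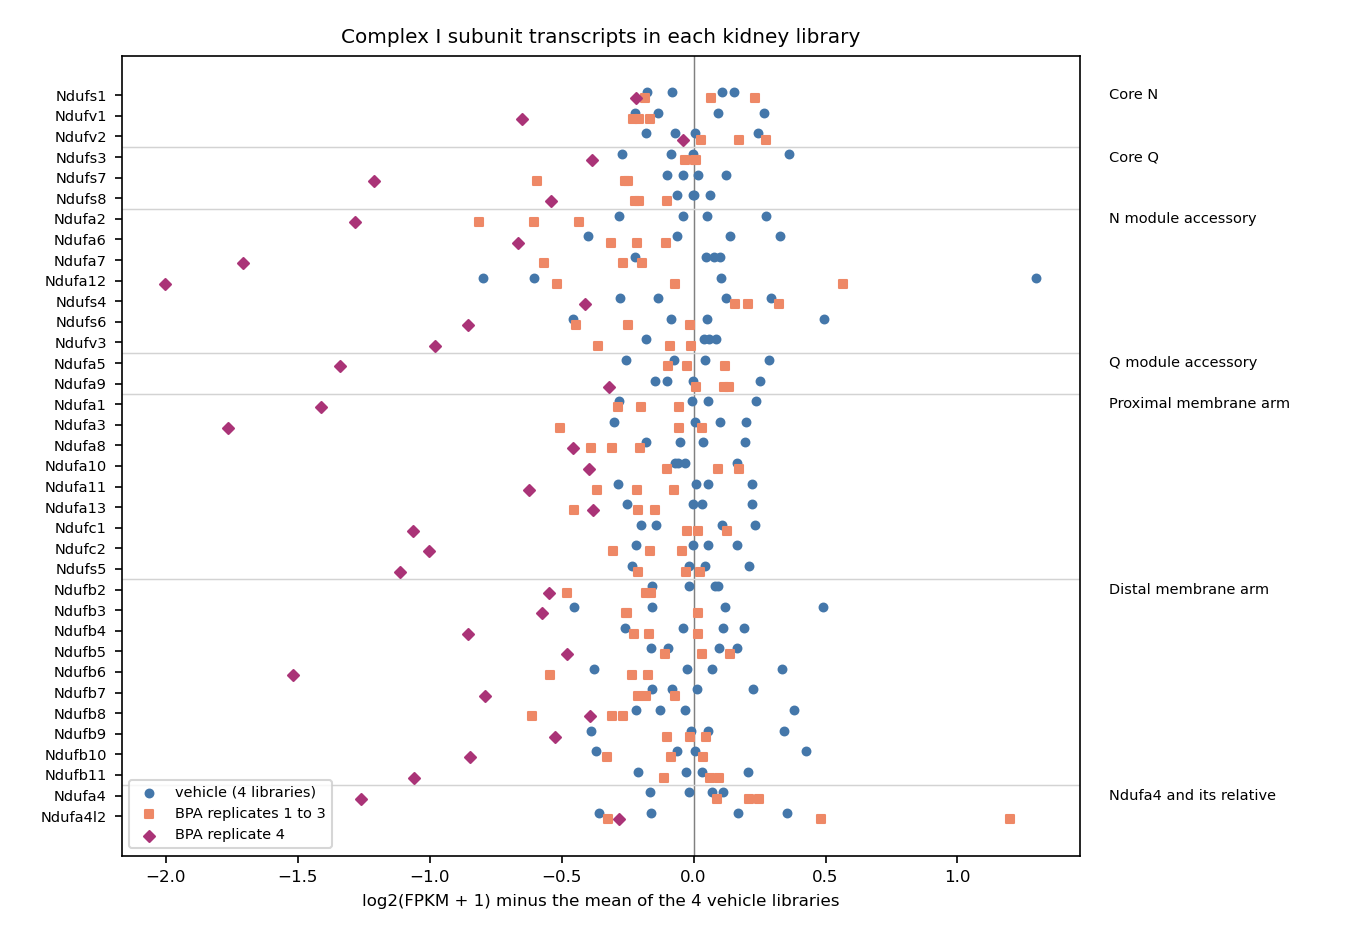
Each row is a subunit and each point a library, placed at its log2(FPKM + 1) minus the mean of the 4 vehicle libraries, with subunits grouped by their place in the complex. BPA replicate 4 lies furthest left in 32 of the 36 rows shown, and Ndufa2 has all BPA points left of all vehicle points.

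The members were lowest as a set in 1 BPA library and highest in 1 vehicle library. BPA replicate 4 held the lowest of the 8 values in 33 of 37 members (89.2%), whereas it was lowest in 28.0% of all genes tested. The median difference of the members from the vehicle mean was -0.73 in BPA replicate 4, and -0.03, -0.08 and -0.21 in BPA replicates 1 to 3. Vehicle libraries also differed from each other as a set: the same median was -0.00, -0.22, 0.21 and 0.00 in vehicle replicates 1 to 4. Vehicle replicate 3 was the highest vehicle library for 32 members and vehicle replicate 2 the lowest for 29. The members' share of all reads was 0.288% in BPA replicate 4 and 0.418 to 0.536% in the other libraries. Their summed FPKM was 3094 ± 391 (SD, n = 4) in vehicle and 2566 ± 565 (SD, n = 4) in BPA, or 2845 ± 112 (SD, n = 3) without BPA replicate 4, so the means differed by about the spread within a group. The medians of BPA replicates 1 and 2 lay within the vehicle range, and that of BPA replicate 3 lay just inside its lower end.

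The core subunits of the N module bind NADH, the flavin and the first iron-sulfur clusters, and none of them separated the groups. Ndufv1, which carries the NADH and flavin site, was at 121, 114, 160.4 and 142 FPKM in vehicle replicates 1 to 4 and at 115, 119, 114 and 84.7 FPKM in BPA replicates 1 to 4. Its BPA values all lay below the vehicle mean but overlapped the lowest vehicle library, replicate 2 (log2 change -0.31, SE 0.159; limma adjusted p = 0.486; -0.20 without BPA replicate 4). Ndufs1, the largest subunit, was at 34.4, 36.8, 43.5 and 42.1 FPKM in vehicle and at 40.9, 34.2, 46.0 and 33.4 FPKM in BPA. Its groups covered the same range (log2 change -0.03, limma adjusted p = 0.948, and 0.04 without BPA replicate 4). Ndufv2 was among the 3 members with a higher mean in BPA, at 91.8, 85.0, 114 and 96.7 FPKM in vehicle and 109, 117, 98.4 and 93.8 FPKM in BPA. The difference, 0.11 (SE 0.131), was smaller than its error (limma adjusted p = 0.749), and it was 0.16 without BPA replicate 4.

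The core subunits of the Q module carry the last iron-sulfur clusters and the ubiquinone site, and all 4 had lower means in BPA in both fits, with medians of -0.25 and, without BPA replicate 4, -0.11. Ndufs7, which holds the terminal cluster beside ubiquinone, was at 97.9, 90.1, 106 and 94.1 FPKM in vehicle and at 63.7, 81.2, 80.6 and 41.2 FPKM in BPA. All BPA libraries were lower than the lowest vehicle library. The log2 change was -0.58 (SE 0.210, unadjusted p = 0.0224, limma adjusted p = 0.406), and -0.37 (SE 0.118, unadjusted p = 0.0150, adjusted p = 0.423) without BPA replicate 4. Ndufs8, a ferredoxin-like subunit that carries a pair of clusters, was at 133, 127, 139 and 133 FPKM in vehicle and 114, 124, 115 and 91.2 FPKM in BPA. These groups did not overlap either, and the vehicle spread was narrow (133 ± 4.67 FPKM, SD, n = 4), but the change of -0.27 (SE 0.123) did not pass (limma adjusted p = 0.463), nor did the -0.18 without BPA replicate 4 (adjusted p = 0.541). After the GC and length corrections the change of Ndufs8 was -0.05, with and without BPA replicate 4. Ndufs3, a core subunit of the same module, was at 64.7, 56.7, 88.6 and 68.5 FPKM in vehicle and at 67.1, 69.1, 68.9 and 52.4 FPKM in BPA. Outside BPA replicate 4 its BPA values lay inside the vehicle range, and its change was -0.10 (limma adjusted p = 0.810), or -0.01 without that library.

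Of the 7 accessory subunits of the N module, 6 had lower means in BPA in both fits, with a median of -0.39, or -0.21 without BPA replicate 4. Ndufa2, a small subunit with a thioredoxin-like fold, had the lowest change of all 37 members. Its gene lies on chromosome 18 (GRCm38, 36742332 to 36744557, minus strand) in 3 exons and shares 11.5% of its exon bases with Tmco6 on the other strand. It was at 182, 144, 213 and 171 FPKM in vehicle and at 129.7, 115, 99.6 and 71.6 FPKM in BPA, so the highest BPA library was below the lowest vehicle library. The log2 change was -0.78 (SE 0.201, unadjusted p = 0.00374, limma adjusted p = 0.355), and -0.62 (SE 0.155, unadjusted p = 0.00424, adjusted p = 0.344) without BPA replicate 4. Ndufa7, another small subunit of the matrix arm, was at 37.4, 30.9, 38.9 and 38.2 FPKM in vehicle and 29.9, 31.5, 24.1 and 10.4 FPKM in BPA. Only BPA replicate 2 reached the vehicle range, and the change of -0.69 (SE 0.307, limma adjusted p = 0.459) was -0.34 (SE 0.129, adjusted p = 0.460) without BPA replicate 4. Ndufs4, which is needed for a stable N module and whose loss causes Leigh syndrome, was at 22.9, 25.5, 34.6 and 30.7 FPKM in vehicle and at 32.5, 35.4, 31.4 and 20.9 FPKM in BPA. Its mean was higher in BPA by 0.07 (SE 0.189, limma adjusted p = 0.899), and by 0.23 (SE 0.147, adjusted p = 0.631) without BPA replicate 4. The other members of the list, Ndufv3, Ndufs6, Ndufa6 and Ndufa12, had adjusted p of at least 0.513.

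The accessory subunits of the Q module, Ndufa5 and Ndufa9, had log2 changes below 0 with all libraries, and at or above 0 without BPA replicate 4. Ndufa5 was at 81.5, 66, 96.7 and 75.1 FPKM in vehicle and 86.1, 77.8, 73.9 and 30.6 FPKM in BPA, which gave a change of -0.33 (SE 0.308, limma adjusted p = 0.669) with all libraries and 0.00 without BPA replicate 4. Ndufa9, which joins the Q module to the membrane arm, was at 71.6, 69.3, 91.8 and 76.7 FPKM in vehicle and 84.5, 77.4, 83.4 and 61.4 FPKM in BPA. The change was -0.01 (limma adjusted p = 0.972), or 0.09 without that library.

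All 9 accessory subunits of the proximal membrane arm, next to the matrix arm, had lower means in BPA, with a median of -0.33; without BPA replicate 4 the lower members were 7 and the median -0.18. Ndufa8, an intermembrane-space subunit held together by disulfide bonds, was at 115, 98.8, 129 and 108 FPKM in vehicle and at 85.4, 97.2, 90.3 and 81.5 FPKM in BPA. It depended little on BPA replicate 4, which was at 89.5% of the mean of the other BPA libraries. The groups did not overlap, and the change was -0.34 (SE 0.120, unadjusted p = 0.0204, limma adjusted p = 0.393), or -0.30 (SE 0.115, unadjusted p = 0.0319, adjusted p = 0.464) without that library. After the GC and length corrections it was -0.13, or -0.18 without that library. Ndufa13, also known as GRIM-19, was at 116, 96.9, 135 and 118 FPKM in vehicle and 84.2, 99.8, 104 and 88.7 FPKM in BPA. Here the lowest library was BPA replicate 1, and the change was -0.30 (SE 0.135, limma adjusted p = 0.461), or -0.27 without BPA replicate 4. Its exons share 29.98% of their bases with Tssk6 on the other strand. Ndufa1, an X-linked subunit with a single membrane helix and the most abundant of the list, was at 199, 138, 175 and 168 FPKM in vehicle and 147, 162, 138 and 62.7 FPKM in BPA. Its BPA values outside replicate 4 lay within or at the low end of the vehicle range (log2 change -0.49, SE 0.288, limma adjusted p = 0.527; -0.18 without BPA replicate 4). For Ndufa3 in the same arm, BPA replicate 4 was at 31.4% of the mean of the other BPA libraries.

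The 10 subunits of the distal membrane arm, all of the Ndufb series, likewise had lower means in BPA, with a median of -0.31, and 8 of them without BPA replicate 4 (median -0.14). Ndufb8, whose protein is a common antibody target for assembled complex I, was at 30.3, 28.3, 43.4 and 32.3 FPKM in vehicle and at 27.3, 26.5, 21.3 and 25 FPKM in BPA. Here BPA replicate 4 lay between the other BPA libraries, at 99.7% of their mean, the closest of all 37 members. The change was -0.40 in both fits (SE 0.149, unadjusted p = 0.0266, limma adjusted p = 0.408; without BPA replicate 4, SE 0.163, adjusted p = 0.476). Ndufb2 was at 2.0, 1.98, 1.78 and 1.52 FPKM in vehicle and at 1.48, 1.52, 1.01 and 0.925 FPKM in BPA. The groups did not overlap, but only narrowly: vehicle replicate 4 was at 1.525 FPKM and BPA replicate 2 at 1.515 FPKM. The change was -0.34 (SE 0.131, unadjusted p = 0.0285, limma adjusted p = 0.415), or -0.27 without BPA replicate 4. That gene rested on 86 to 206 reads per library, and 7.94% of its exon bases are shared with other genes. Ndufb11, an X-linked subunit and the most abundant of the arm, was at 171, 151, 202 and 178 FPKM in vehicle and 186, 182, 161 and 83.0 FPKM in BPA. Its change of -0.25 (SE 0.254, limma adjusted p = 0.695) was 0.02 without BPA replicate 4.

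**Figure D2:**
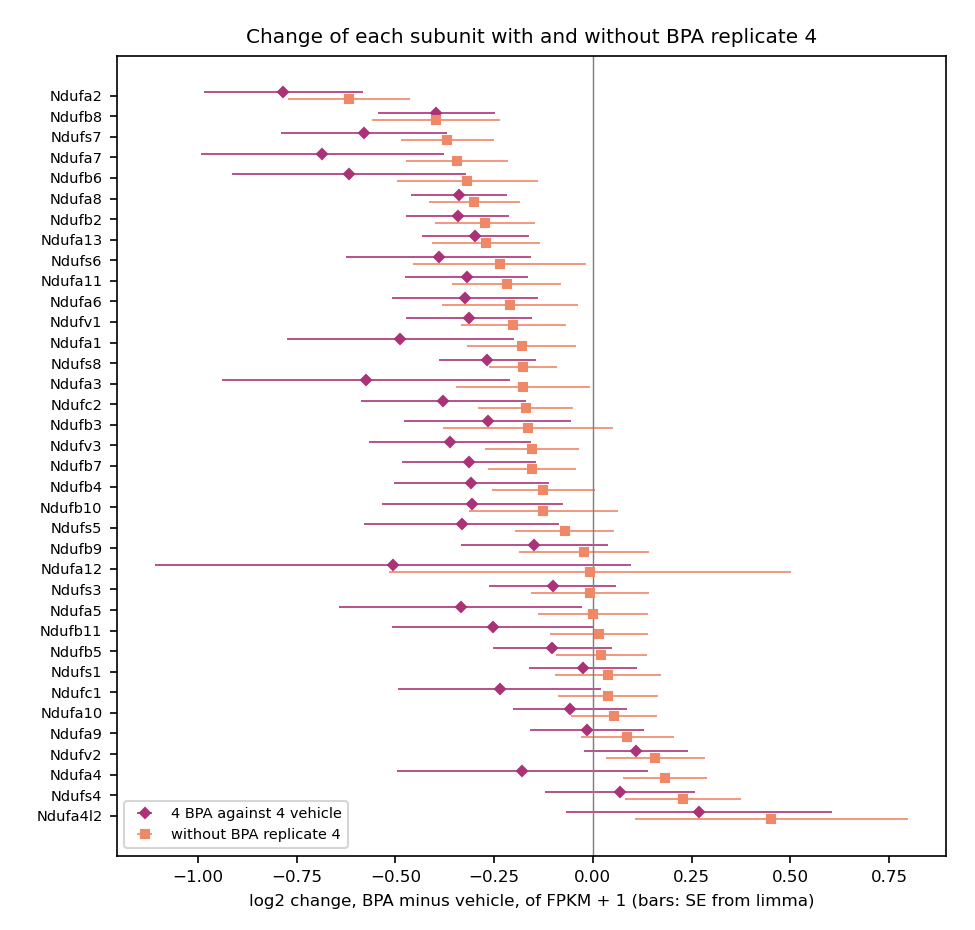
Points give the log2 change of FPKM + 1 (BPA minus vehicle) of each of 36 subunits with its limma SE, from all 8 libraries and from the 7 libraries without BPA replicate 4, ordered by the latter. Ndufa2 and Ndufb8 keep changes of -0.62 and -0.40 without that library, while Ndufa4 moves from -0.18 to 0.18.

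Ndufa4 and Ndufa4l2 carry the family name but are not taken as structural subunits of complex I: the protein of Ndufa4 was reassigned to cytochrome c oxidase, and Ndufa4l2 is its hypoxia-induced relative. Ndufa4 was the most abundant member, at 266, 239.8, 290.5 and 282 FPKM in vehicle and at 311, 319.8, 286 and 112 FPKM in BPA. BPA replicates 1 and 2 were the highest libraries, BPA replicate 3 lay within the vehicle range and BPA replicate 4 was the lowest, and the change was -0.18 (SE 0.319, limma adjusted p = 0.831) with that library and 0.18 (SE 0.107, adjusted p = 0.601) without it. Ndufa4l2 was at 3.04, 2.55, 1.83 and 1.47 FPKM in vehicle and 1.53, 6.27, 3.42 and 1.60 FPKM in BPA. Its higher mean in BPA (0.27, SE 0.337, limma adjusted p = 0.760) came from BPA replicate 2, without which the change was -0.04; without BPA replicate 4 it was 0.45. Leaving both genes out, the median was -0.31 and 33 of 35 had lower means, or -0.16 and 26 of 35 without BPA replicate 4.

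Ndufa12, an accessory subunit of the N module, could not be read from its own value, and it was singled out after its values were seen. Its gene lies on chromosome 10 (GRCm38, 94198720 to 94221443, plus strand). A processed pseudogene, Gm15920, lies on chromosome 5 (130188395 to 130188796, plus strand). It is a copy of 402 bases of the Ndufa12 coding sequence, of which 400 are identical. The principal transcript of Ndufa12 has 1110 bases, so its other bases lie outside the copy. Short reads wholly inside the 402 bases differ between the loci only where they cross 1 of 2 positions. The bases around both are given from GENCODE M21 transcripts, with positions counted from the first base of the longest open reading frame of Ndufa12 (450 bases) and the differing base in capitals. The first is A147G and the second T426C, the parent's base being given first.
Ndufa12 around position 147: gaagacaaatatggAaataaatactacga
Gm15920 at the same place: gaagacaaatatggGaataaatactacga
Ndufa12 around position 426: attcatgaatgggtTccaccttcgacacc
Gm15920 at the same place: attcatgaatgggtCccaccttcgacacc

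The reads were divided unevenly between these loci. Ndufa12 held 758, 177, 266 and 147 reads in vehicle replicates 1 to 4 and 421, 254, 173 and 46 in BPA replicates 1 to 4, while Gm15920 held 819, 1024, 1237 and 1509 reads and 1016, 1194, 953 and 450 reads. Over all libraries the pseudogene was listed with 366% of the reads of its parent, and the parent's share ran from 8.88% in vehicle replicate 4 to 48.1% in vehicle replicate 1. The FPKM of Ndufa12 alone had a coefficient of variation of 79.3% in vehicle, and the sum of both, scaled between libraries as the deposited values are, had one of 15.9%. From the sum, a choice made after seeing the data, the log2 difference was -0.47, or -0.12 without BPA replicate 4, against -0.51 (SE 0.603, limma adjusted p = 0.748) and -0.01 for Ndufa12 alone. How the authors treated reads with several matches was not given in the sources used here.

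**Figure D3:**
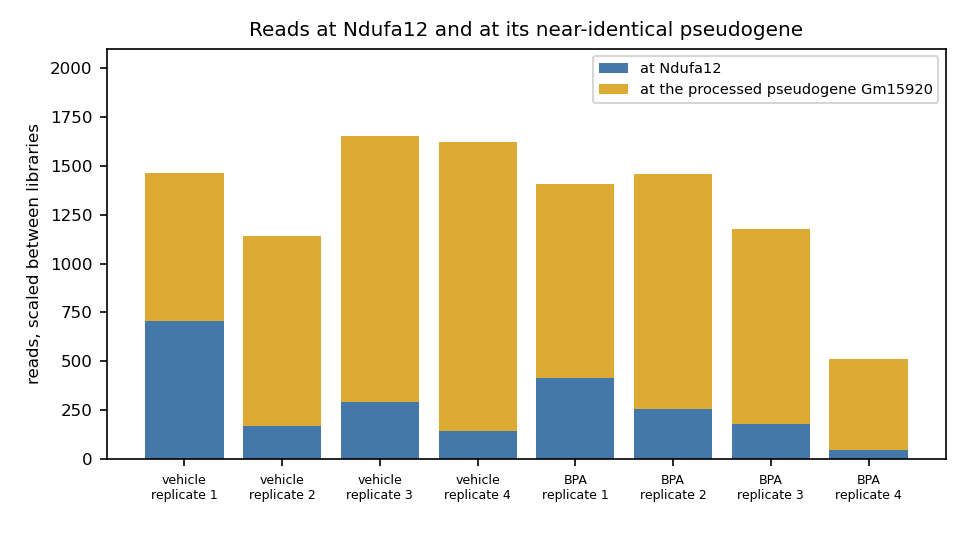
Bars give, for each library, the recovered reads at Ndufa12 and at its processed pseudogene Gm15920, scaled between libraries as in the deposited table and stacked. The sum is lowest in BPA replicate 4, and the part at Ndufa12 ranges from 8.88% to 48.1%.

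A processed pseudogene at least 95% identical over at least 200 bases existed for 7 members in all. For the others among these, Ndufs3, Ndufs5, Ndufs6, Ndufb3, Ndufb4 and Ndufb11, such copies held at most 6.0% of the parent's reads. Exon bases shared with another annotated gene were found in 16 members, and whether the counting used strand was not given in the sources used here.

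In vehicle kidneys the members ranged from 269.6 ± 22.4 FPKM for Ndufa4 to 1.82 ± 0.220 FPKM for Ndufb2 (SD, n = 4 each), with a median of 77.3 FPKM. After Ndufa4 came Ndufa2 (177 ± 28.4 FPKM), Ndufb11 (175 ± 21 FPKM) and Ndufa1 (169.8 ± 24.9 FPKM), whose vehicle values overlapped. Of the 36 pairs of neighbours in the order, 34 had overlapping vehicle ranges, so most of the order is not resolved by these libraries. The order also depends on the length used. FPKM divides by the length listed in the table, which for the 33 members at GENCODE M21 coordinates is the union of all annotated exons. It was longer than the principal transcript by a median factor of 1.46 and by more than 2 in 9 members. Ndufb7, a subunit of the intermembrane-space face, has a listed length 7.26 times its principal transcript, and it came to 153 FPKM in vehicle when scaled to that transcript, against 21.1 FPKM as deposited. In the same way Ndufb8 moved from 33.6 to 155 FPKM and Ndufa6 from 94.5 to 288 FPKM (both, like Ndufb7, chosen after their values were seen). Only Ndufb2, Ndufa4l2 and Ndufa12 stayed under 20 FPKM on both scales. This rescaling moves levels, not changes between groups.

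The members are short genes, with a median listed length of 1495 bases against 3765 for all genes tested, and their median GC of the transcript was 51.5% against 49.7%. Across all genes tested the change was higher in longer genes (Spearman rho 0.29 over 13376 genes) and lower in GC-rich ones (rho -0.40 over 13364 genes), genes not being independent replicates. Across the 37 members rho was 0.40 for length and -0.06 for GC, and without BPA replicate 4 it was 0.29 and -0.26, against 0.15 and -0.44 for all genes. Under 1000 bases the median of the members was -0.36 and 10 of 10 had lower means, where 62.5% of all genes of that length were lower with a median of -0.17. From 1000 to 2000 bases the medians were -0.31 for 14 members and -0.14 for all genes, and from 2000 to 4000 bases -0.10 for 9 members and -0.06 for all genes. Above 4000 bases 4 members had a median of -0.21 and all genes one of 0.05. Without BPA replicate 4 the medians in these 4 ranges, from short to long, were -0.18, -0.13, -0.0075 and -0.07 for the members and -0.07, -0.06, -0.03 and 0.02 for all genes, with 9 of 10, 10 of 14, 5 of 9 and 2 of 4 members lower. Each library's values were then corrected for GC and then length, a step added after seeing the data. After it 31 of 37 members had lower means and the median was -0.20, and without BPA replicate 4 the count was 25 with a median of -0.05. These corrected figures are given without those over all genes tested, so they have no background.

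**Figure D4:**
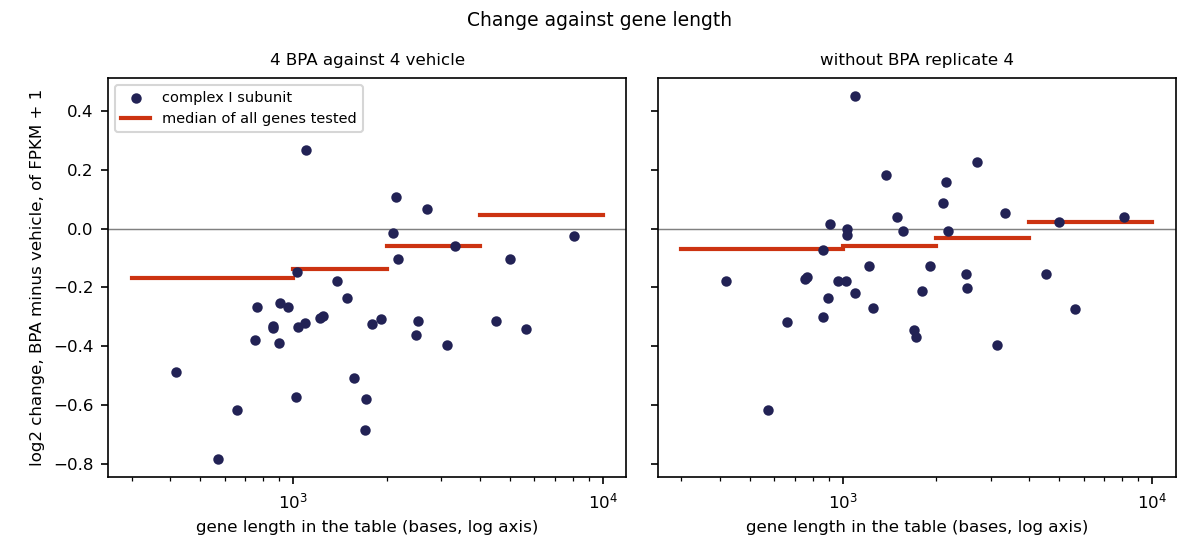
Each point is 1 of 36 subunits, at its listed gene length (log axis) and its log2 change of FPKM + 1, with all libraries on the left and without BPA replicate 4 on the right; bars give the median change of all genes tested in each length range. On the left, 10 of 10 subunits under 1000 bases are below 0, and the median of all genes of that length is -0.17.

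The 7 subunits that the mitochondrial genome encodes, which form the proton-pumping core of the membrane arm, were mostly at higher values in BPA. Of these, 6 were higher in BPA with no overlap between groups, each at an unadjusted p under 0.05, and 0 passed the test (smallest limma adjusted p = 0.359). Over all genes tested, 3.23% lay wholly above vehicle and 4.18% were higher at that unadjusted p. The median change of the 7 was 0.62, or 0.50 without BPA replicate 4 (smallest adjusted p = 0.319). With quantile normalization it was 0.13, with 1 of the 7 free of overlap and 2 higher at an unadjusted p under 0.05. After the GC and length corrections 4 were free of overlap. The counts under these alternatives are given without the share over all genes tested, so they have no background. mt-Nd1 was at 9865, 10734, 10542 and 11004 FPKM in vehicle and at 14780.5, 14166, 14267 and 18354 FPKM in BPA (a log2 change of 0.54, SE 0.144; 0.45 without BPA replicate 4). mt-Nd2, mt-Nd4 and mt-Nd5 had changes of 0.62, 0.57 and 1.02, and mt-Nd6, the subunit on the opposite DNA strand, one of 1.0. Without BPA replicate 4 these were 0.50, 0.47, 0.67 and 0.63. In each of these BPA replicate 4 was the highest library, as it was in mt-Nd4l, with 335 FPKM, compared with 90.3 to 118 FPKM in BPA replicates 1 to 3 and 40.1 to 65.0 FPKM in vehicle (a log2 change of 1.26, or 0.83 without BPA replicate 4). mt-Nd3 was the exception, at 239, 25.4, 88.8 and 24.0 FPKM in vehicle and 26.2, 34.0, 26.3 and 38.6 FPKM in BPA (a log2 change of -0.95 with an SE of 0.661, limma adjusted p = 0.582; -1.05 without BPA replicate 4), its difference resting on vehicle replicates 1 and 3.

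Set against each other within a library, summed mt-Nd FPKM was 9.29, 12.7, 8.16 and 10.2 times the summed FPKM of the 35 nuclear subunits in vehicle replicates 1 to 4, and 15.3, 14.7, 17 and 42.1 times in BPA replicates 1 to 4. The groups did not overlap in this ratio, which stays so by construction when BPA replicate 4 is left out. Its numerator follows the share of mitochondrially encoded reads given above, and in polyadenylated RNA both quantities also depend on how these transcripts are captured, which was not tested.

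**Figure D5:**
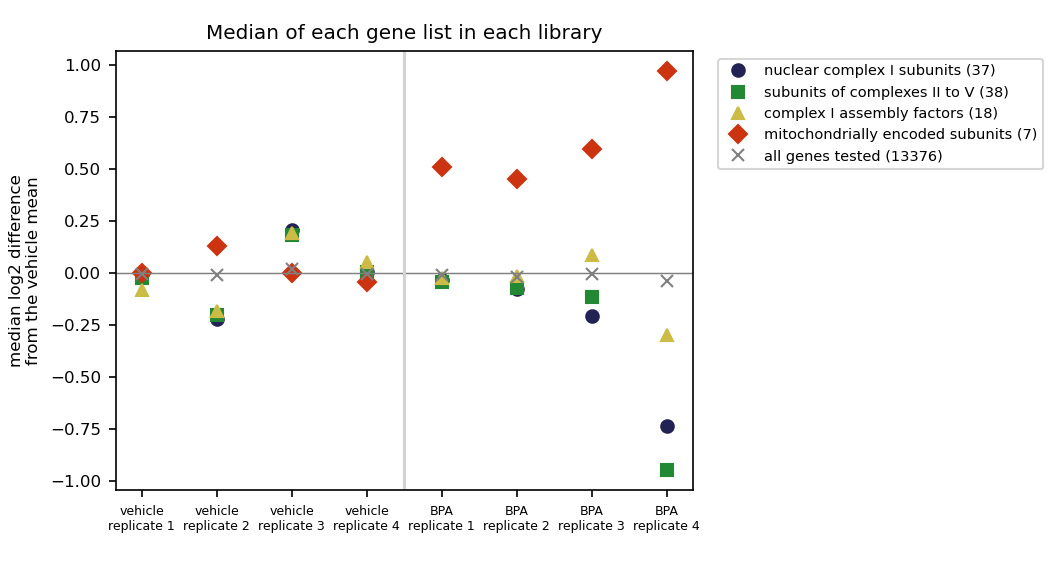
For each library the points give the median, over the genes of a list, of log2(FPKM + 1) minus the vehicle mean. Nuclear complex I subunits and subunits of complexes II to V are both lowest in BPA replicate 4 (-0.73 and -0.95), where the mitochondrially encoded subunits are highest (0.97).

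Nuclear subunits of complexes II to V, which take the electrons on to oxygen and make ATP, were, like those of complex I, lowest in BPA replicate 4 and highest in vehicle replicate 3 by their library medians. Of 38 tested (39 listed), 34 were lower with a median of -0.28, and without BPA replicate 4 the count was 24 and the median -0.05; limma called 0 (smallest adjusted p = 0.408). BPA replicate 4 was the lowest of 8 libraries in 35 of them (92.1%). Atp5e, the epsilon subunit of ATP synthase, was at 76.0, 63.2, 112 and 87.2 FPKM in vehicle and at 45.9, 52.7, 60.9 and 15.5 FPKM in BPA (a log2 change of -1.06, SE 0.396; -0.64 without BPA replicate 4, limma adjusted p = 0.418). Uqcrc1, a core subunit of complex III, averaged 153 ± 17.3 FPKM over the vehicle libraries and 126 ± 7.88 FPKM over the BPA libraries (SD, n = 4 each; log2 change -0.27, limma adjusted p = 0.457; -0.25 without BPA replicate 4).

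Assembly factors, which build the complex and leave it, had a median of -0.10 with 13 of 18 lower (the difference from the subunits was not tested), and without BPA replicate 4 the count was 8 with a median of 0.03. Limma called 0 of them (smallest adjusted p = 0.387). Ndufaf1, which helps build the membrane arm, was at 20.3, 19.6, 19.8 and 17.6 FPKM in vehicle and 24.3, 24.1, 26.4 and 20.9 FPKM in BPA, so all BPA libraries were higher (log2 change 0.29, SE 0.103; 0.35 without BPA replicate 4, limma adjusted p = 0.339). Ndufaf4 was higher by 0.26 (limma adjusted p = 0.465; 0.19 without BPA replicate 4), its lowest BPA library at 21.1 FPKM and its highest vehicle libraries at 21 FPKM. Dmac1, which takes part in building the distal membrane arm, was at 33.0, 30.7, 40.2 and 37 FPKM in vehicle and 28.4, 28.3, 24.9 and 10.8 FPKM in BPA. That is a log2 change of -0.67 (SE 0.283, limma adjusted p = 0.440), or -0.36 without BPA replicate 4.

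Among 13 regulators of mitochondrial gene expression, 9 were lower with a median of -0.04, or 7 and -0.07 without BPA replicate 4, and limma called 0 (smallest adjusted p = 0.374). Ppargc1a, the coactivator PGC-1alpha, was at 7.12, 8.03, 6.67 and 5.39 FPKM in vehicle and at 8.04, 8.97, 9.56 and 11.4 FPKM in BPA. The highest vehicle and the lowest BPA library nearly met, and the change was 0.43 (SE 0.140, limma adjusted p = 0.374), or 0.35 without BPA replicate 4. Esrra, the estrogen-related receptor that works with PGC-1alpha, was at 55.1, 44.0, 67.9 and 65.3 FPKM in vehicle and 47.9, 39.3, 43.2 and 45.1 FPKM in BPA, a change of -0.38 (SE 0.151, limma adjusted p = 0.429) that was -0.39 without BPA replicate 4. Gabpa and Nrf1, which bind promoters of respiratory chain genes, had changes of 0.10 and -0.04 and Tfam, the packaging and transcription factor of mitochondrial DNA, one of 0.01 (limma adjusted p of at least 0.704 for these 3). Without BPA replicate 4 these were 0.05, -0.07 and 0.07.

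A pair of further nuclear subunits fall outside the naming rule. Ndufab1, the acyl carrier protein, averaged 13.9 ± 0.933 FPKM over the vehicle libraries and 14.7 ± 2.01 FPKM over the BPA libraries (SD, n = 4 each; log2 change 0.08, limma adjusted p = 0.803; 0.16 without BPA replicate 4), with near-identical pseudogenes listed at 36.1% of its reads. Ndufb1-ps was at 37.7 ± 5.81 and 37.4 ± 13.8 FPKM (SD, n = 4 each), a change of -0.08 (limma adjusted p = 0.920) that turned to 0.19 (adjusted p = 0.714) without BPA replicate 4.

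Promoter sequences from RefSeq (GRCm38.p6), 250 bases before to 50 after each start, matched 32 of 37 members with 34 windows. Both strands were searched for 4 motifs and compared with 32544 windows of the same length. GCATGCGC, part of the site of NRF1, was in 8.82% of the members' windows and 2.73% of all. AAGATGG, the core bound by YY1, was in 20.6% and 6.37%. CCGGAAG, bound by ETS factors such as GABPA, was in 11.8% and 8.91%, and AAGGTCA, bound by ESRRA, in 8.82% and 4.71%. The members' windows had a median GC of 59% against 53%, and a match is only a match of letters. Among the 6 members without overlap between groups, Ndufa8 held the NRF1 letters, Ndufs7 and Ndufb8 those of YY1, Ndufs8 those of ETS factors and Ndufb2 those of ESRRA, while Ndufa2 had no window in the table. Of the 32 members matched, the NRF1 letters were in 3, those of ETS factors in 4, of ESRRA in 3 and of YY1 in 7. Members with overlap held them too, such as Ndufs3 (ETS factors) and Ndufa9 and Ndufs4 (YY1). A link between matches and changes was not tested. The NRF1 matches, the rarest of the 4 over all windows, are shown in 30 bases each on the strand of the gene, with the match in capitals. They start 8, 83 and 60 bases before the RefSeq start site, and in Ndufa11 a match on each strand overlaps the other. In the GENCODE gene model Ndufa8, on the minus strand, reaches 36049406, so there its match lies inside the gene.
Ndufa8, chr2:36049328-36049357, minus strand: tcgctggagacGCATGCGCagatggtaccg
Ndufa6, chr15:82354356-82354385, minus strand: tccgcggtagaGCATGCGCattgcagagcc
Ndufa11, chr17:56717692-56717721, plus strand: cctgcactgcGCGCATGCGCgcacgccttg
These 3 genes had changes of -0.34, -0.32 and -0.32, and without BPA replicate 4 of -0.30, -0.21 and -0.22, beside medians of -0.31 and -0.15 over all members.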

How the data were processed

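Polyadenylated RNA of 8 kidney libraries was sequenced, and the deposited table gives FPKM per gene, which the authors made from their reads, with each gene's length, name, type and coordinates. DESeq2 1.20.0 and the build GRCm38 appear in the labels, per the submitters' processing notes, with no role given. The aligner, the counter and the treatment of reads with several matches were not given in the sources used here. Columns named for BPA matched the BPA libraries; the columns lettered C were read as the vehicle group, since the labels hold no further group, and their numbers as replicates. Multiplied by length, 100% of low FPKM values fell within 0.01 reads of a whole number of reads, which gave whole reads per gene (15944081 to 17351540 per library) and a scaling that is shared between libraries rather than set by each total. Duplicate libraries were not found (chi-square of reads per gene 14.3 to 91.0 between libraries of a group).

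Limma 3.58.1 in R 4.3.3 was fitted to log2(FPKM + 1), with a trended and robust variance and no covariate, over the 13376 genes averaging at least 0.5 FPKM (11550 of them protein-coding), and p was adjusted by Benjamini-Hochberg over all of them. The log2 scale with a pseudocount of 1 understates changes of low genes. The fit was repeated without BPA replicate 4, and the script was tested on simulated data drawn from these libraries. Named were the core subunits, Ndufa4 and Ndufa4l2, in each accessory list the 2 members with the smallest p and the most abundant one, every member with a change above 0, and a fixed few of the comparison lists; 1 item that this rule names is not reported here. Members, lists, tests and alternatives were chosen with earlier results of these data known. Gene models, GC and pseudogenes came from GENCODE M21 (33 of 37 members at the same coordinates), with pseudogenes found by blastn 2.17.0 (e-value 1e-20), and promoters from RefSeq GRCm38.p6. Other steps ran in Python 3.11.15 with scipy 1.17.1, pandas 2.3.3, numpy 2.4.6 and matplotlib 3.10.9. Alternatives changed the pseudocount, the filter, the scaling, library weights, the model (limma-voom on recovered reads), covariates, corrections for GC and length, and the libraries used.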

Additional observations from a re-analysis of the deposited data

Results flagged for a closer look

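In a test for a value far from the rest of its group of 4 (Dixon's ratio of the gap to the range), 3 of the 40 groups examined were flagged. Chance flags about 1 in 20 groups. In all 3 the value was that of BPA replicate 4. The 40 groups include vehicle groups, to which that library does not belong, so its own share of flags is higher than 3 of 40. Ndufa4 was at 112 FPKM there, against 286 to 319.8 FPKM in the other BPA libraries. Ndufs3 was at 52.4 FPKM, against 67.1 to 69.1 FPKM, and Ndufv1 at 84.7 FPKM, against 114 to 119 FPKM. No vehicle library was far from its group by this measure in the 19 members examined. The 3 values are not independent, since they come from 1 library.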

How the results depend on the processing

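No member was called under any of the 26 other settings (lowest limma adjusted p 0.206, with library weights). The members lower in BPA numbered 25 to 36. Their median was -0.39 to -0.15 when libraries were left out in turn, and -0.052 with GC and length corrections without BPA replicate 4. Members lying wholly below vehicle numbered 6 to 15 when libraries were left out in turn (15, or 40.5%, without vehicle replicate 2). Over all genes tested that share was 6.03 to 8.24%, the latter without vehicle replicate 2. Without vehicle replicates 2 and 4, where fewer samples are compared, it was 18 members (48.6%) and 11.6% of all genes tested. With a common total of reads or of nuclear reads it was 5 members (13.5%), against 5.72% and 4.28% of all genes tested. Such members also numbered 5 with quantile normalization or the GC correction, and 4 with the GC and length corrections together. For these settings the share over all genes tested is not given, so the counts have no background. Members lower at an unadjusted p under 0.05 numbered 1 (without vehicle replicate 3) to 9 (without vehicle replicate 2 or BPA replicate 2) when libraries were left out in turn. They numbered 9 with a common total of reads, 8 with limma-voom, 3 with the GC correction and 3 with a replicate block without BPA replicate 4. Of all 13376 genes tested, 676 were lower at that level without vehicle replicate 3 and 957 without vehicle replicate 2. Without BPA replicate 2 it was 1011 genes, and with a common total of reads 1116. For limma-voom, the GC correction and the replicate block no such number over all genes is given. The cause of these differences was not tested. Same-numbered libraries share only a number (correlations of deviations 0.137, 0.019, 0.138 and -0.033), and a replicate block left 34 members lower, with a median of -0.31, 4 at an unadjusted p under 0.05 and 0 called.

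Changes of the following members crossed 0, none past the threshold. With libraries left out in turn, the log2 change was -0.32 at the lowest and 0.18 at the highest for Ndufa4 (without BPA replicate 2 and without BPA replicate 4), -0.042 (without BPA replicate 2) to 0.47 for Ndufa4l2, -0.49 to 0.0005 (without BPA replicate 4) for Ndufa5, -0.065 to 0.087 (without BPA replicate 4) for Ndufa9, -0.37 to 0.016 (without BPA replicate 4) for Ndufb11, -0.11 to 0.038 (without BPA replicate 4) for Ndufs1, -0.19 to 0.019 (without vehicle replicate 3) for Ndufs3 and -0.025 (without vehicle replicate 1) to 0.23 for Ndufs4. Without both replicates 4, and equally with a replicate block without BPA replicate 4, it was 0.21 for Ndufa4, 0.086 for Ndufa9, 0.026 for Ndufb11 and 0.074 for Ndufs1. With library weights it was 0.15 for Ndufa4, 0.11 for Ndufa9, 0.021 for Ndufb11, 0.062 for Ndufs1 and 0.012 for Ndufs3. With GC and length corrections it was 0.0061 for Ndufa13, 0.013 for Ndufa9, 0.026 for Ndufs3 and -0.0095 for Ndufs4, and with these corrections without BPA replicate 4 it was 0.072 for Ndufa4, 0.044 for Ndufa5, 0.070 for Ndufa9, 0.10 for Ndufb11 and 0.073 for Ndufs3. Ndufa9 was at 0.0032 with a common total of nuclear reads, 0.068 with quantile normalization and 0.066 with the length correction, and Ndufs1 at 0.042 with quantile normalization. With the GC correction Ndufs4 was at -0.042 and Ndufv2 at -0.015. The GC and length corrections together, the replicate block without BPA replicate 4, the sum of Ndufa12 and Gm15920 and the rescaled levels were chosen after seeing the data.

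Depth limits Ndufb2, Ndufa4l2 and Ndufa12, with as few as 86, 28 and 46 reads in a library.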
